A study of Mus musculus with 10 samples.

Results

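The neuronal immediate early genes *Fos*, *Fosb*, *Junb*, *Arc*, *Egr1*, *Egr2*, *Egr4*, *Npas4*, *Nr4a1* and *Dusp1*, 10 in all, were followed by name through a table of counts for 22000 genes in the prefrontal cortex (PFC) of *Zbtb16* mutant mice. The rule that lists them uses no measured value, but the list was drawn up with earlier results of these data known. All 10 were in the table, and all 10 were among the 14344 genes that passed the filter on low counts.

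Immediate early genes are transcribed within minutes of a stimulus, without any new protein having to be made first. In neurons, calcium entering through synaptic receptors and voltage-gated channels starts kinase cascades that act on the transcription factors CREB and SRF, which are already bound at these genes. Their RNAs are unstable, so their level in a piece of cortex follows what the animal lately experienced, and they are widely used as marks of recent neuronal activity.

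The PFC of 5 wild-type (WT) and 5 *Zbtb16* knockout (KO) mice was sequenced, with 1 library of polyadenylated RNA per mouse, and all mice were labelled male and 7 weeks old. KO mice carried the luxoid (*lu*) allele of the B6.C3-Zbtb16lu/J strain on both chromosomes, a point mutation that gives a premature stop codon in all cells of the body, so that effects within the PFC and effects from elsewhere in the body cannot be told apart. WT mice are labelled wild-type, and the labels name no treatment. The sources used here do not say what the mice did before dissection or how long dissection took.

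The 10 libraries held between 30220122 and 51231439 counts, so that the floor of 3 counts lay between 0.0586 and 0.0993 CPM, the counts of a gene scaled to a fixed library size, far below every value of the 10 genes. *Zbtb16* itself was measured at 47.4 ± 4.96 CPM in KO and 79.0 ± 7.23 CPM in WT mice (SD, n = 5 each), with no overlap. Markers of PFC cells were present in each library, the summed excitatory neuron markers lying between 3437 and 4260 CPM. KO mouse 3 had 1 count in total on *Uty*, *Kdm5d*, *Eif2s3y* and *Ddx3y*, which lie on the Y chromosome, where every other mouse had at least 4376, which goes against its label as male. In KO mouse 5 the hemoglobin genes summed to 137 CPM, above the 57.4 CPM of the next mouse. KO against WT is given with and without these 2 mice. The RNA integrity number (RIN), a measure of how intact the RNA was, fell into 2 ranges, 8.1 to 8.3 in KO mice 3 and 5 and WT mice 3 and 4, and 9.5 to 9.8 in the other 6 mice.

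To show what the members share in their DNA, stretches of their promoters were read from RefSeq on GRCm38.p6 and searched over the 250 bases before each start. Of the 10 genes, 8 were matched in the promoter table, and *Arc* and *Egr1* were not. The letters TGACG, the core of the cAMP response element (CRE) that CREB binds, were searched on both strands and were present in all 8 promoters (for *Egr2* in 3 of its 5 annotated starts), against 17.8% of 32851 promoters in the table. Each stretch is printed 5′ to 3′ on the strand of the gene with TGACG, or CGTCA where the match is on the other strand, in capitals. Distances run from the RefSeq start, which can differ from the start in Gencode.
*Fos*: tccgcccagTGACGtaggaagtc
*Fosb*: agttgcgggTGACGcaagcgcgg
*Junb*: tcctgacagTGACGcgagccgcc
*Egr2*: gggcagcgaCGTCAcgggtattg
*Egr4*: ggtcatttaCGTCAcggcgccag
*Npas4*: gtcacgggaTGACGtcggaagtc
*Nr4a1*: ctctccatgCGTCAcggagcgct
*Dusp1*: ggcgggtgaCGTCAccgcccggt

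These matches began between 40 bases (*Nr4a1*) and 169 bases (*Npas4*) before the start. The printed stretch of *Fos*, a gene of the plus strand, is chr12:85473815-85473837, with its match 66 bases before the start, and those of *Egr2* and *Nr4a1*, also genes of the plus strand, are chr10:67537805-67537827 and chr15:101266797-101266819. The stretches of the genes of the minus strand are those of *Fosb* (chr7:19310092-19310114), *Junb* (chr8:84978841-84978863), *Egr4* (chr6:85513685-85513707), *Npas4* (chr19:4990127-4990149) and *Dusp1* (chr17:26508599-26508621). The palindrome TGACGTCA, which contains TGACG, was found in 1 of the 8 promoters, that of *Dusp1*, and in 1.55% of all promoters. The CArG box, which SRF binds, was found in 1 of the 8, that of *Egr2* in 4 of its 5 starts, and in 1.47% of all promoters. It is in capitals in the stretch of *Egr2* that follows, chr10:67537485-67537512 on the plus strand, where it begins 72 bases before the start.
*Egr2*, CArG box: ggatcttctCCTTTTTTGGaaagtctcg

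The AP-1 element TGACTCA, the site of Fos and Jun proteins, was found in 0 of the 8 promoters and in 4.46% of all. The letters GCGGGGGCG or GCGTGGGCG, which EGR proteins bind, were found in *Fosb* and *Nr4a1* and in 3.06% of all promoters. A match is a description of letters in a window and shows no binding.

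Each of the 10 genes was called neither higher nor lower in KO mice, and the values of KO and WT mice overlapped for every one. KO against WT was tested over all 14344 genes by quasi-likelihood in edgeR, with genotype and 3 surrogate variables in the model. Surrogate variables are computed from the expression matrix and give each mouse a weight, in place of sources of variation that nobody recorded. In this fit 0 of the 10 genes had an adjusted p under 0.05, against 0.844% of all tested genes (0.6% higher and 0.244% lower in KO mice). An unadjusted p under 0.05 was reached by 4 of the 10 (*Junb*, *Arc*, *Egr1* and *Nr4a1*, all higher in KO), against 10.6% of all tested genes in either direction, 5.51% upward and 5.1% downward. KO values did not lie wholly above or below WT values for any of the 10, as they did for 1.58% of the tested genes. The fitted log2 fold change was above 0 for 10 of 10 genes, against 48.1% of the tested genes, and its median was 0.34, against -0.0044 over all tested genes. With genotype alone in the model, 0 of 10 were called (0.209% of the tested genes), 3 had an unadjusted p under 0.05 (*Junb*, *Npas4* and *Nr4a1*, all higher in KO, against 8.02% in either direction and 4.18% upward), 9 of 10 fold changes were above 0 (48.8%) and the median was 0.43.

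The 10 genes move together within mice, as described further on, so that their 10 directions are not 10 separate observations. DESeq2 and limma with the same surrogate variables also called 0 of the 10, with an unadjusted p under 0.05 for 1 gene by DESeq2 and 4 by limma.

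**Figure D1:**
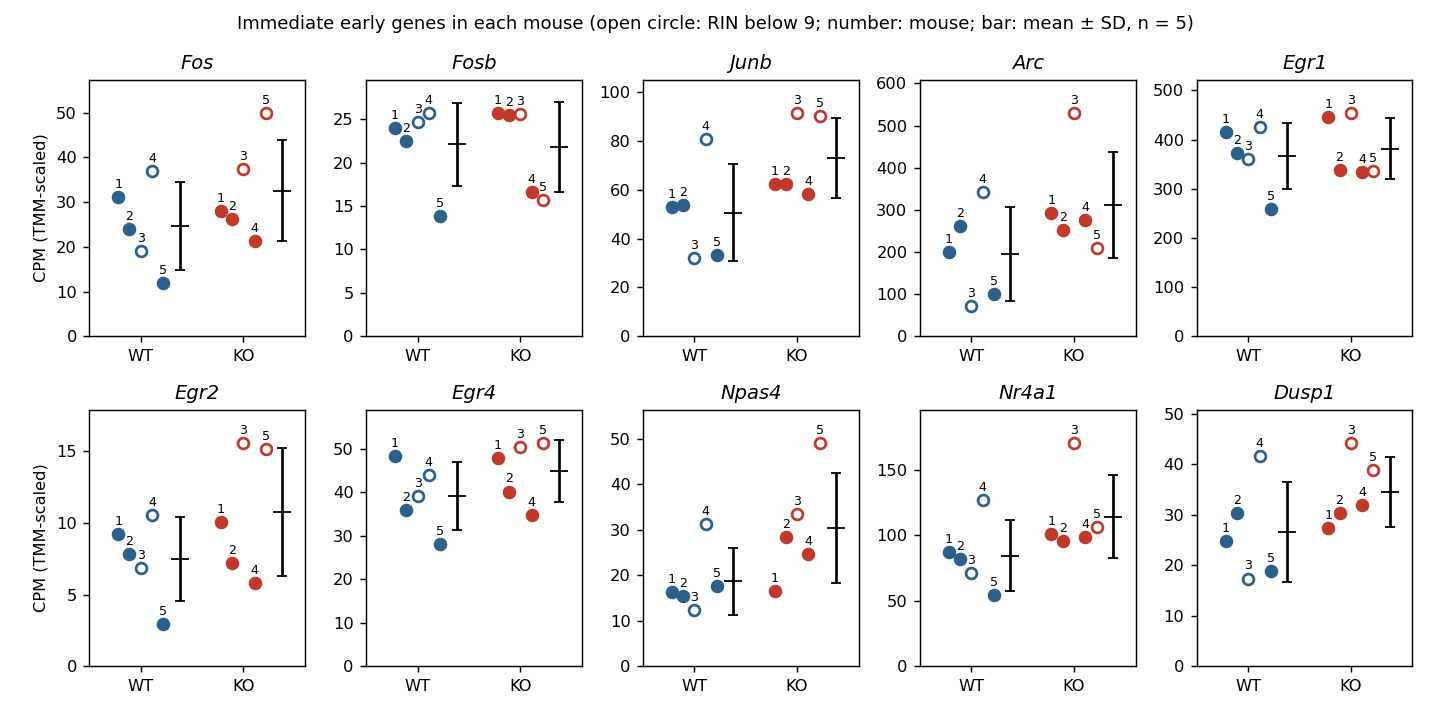
Level of each of the 10 genes in every mouse, in TMM-scaled CPM (vertical axis, from 0), for WT (blue) and KO (red). Numbers name the mouse, open circles mark a RIN below 9, and bars give the mean ± SD (n = 5). The genotypes overlap in every panel, KO mouse 3 stands highest in 6 of the 10 panels and WT mouse 5 lowest in 6.

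*Fos*, *Fosb* and *Junb* encode subunits of AP-1, a dimer of a Fos and a Jun protein that binds DNA. *Fos* (chromosome 12 of GRCm38, 85473890 to 85477273, plus strand) stood at 28.0, 26.3, 37.3, 21.3 and 49.9 CPM in KO mice 1 to 5 and at 31.2, 23.9, 18.97, 36.9 and 11.97 CPM in WT mice 1 to 5. KO mouse 5 was the highest and WT mouse 5 the lowest, and the other mice of the 2 genotypes were interleaved. The means were 32.6 ± 11.3 CPM in KO and 24.6 ± 9.82 CPM in WT mice (SD, n = 5 each). Fitted over both groups, this gave a log2 fold change of 0.25 (95% interval -0.20 to 0.69, edgeR quasi-likelihood adjusted p = 0.747, Benjamini-Hochberg).

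*Fosb* (chromosome 7, 19302696 to 19310051, minus strand) also gives rise to the stable truncated product ΔFosB by splicing, which counts per gene do not separate. Its values were 25.7, 25.5, 25.6, 16.6 and 15.7 CPM in KO mice 1 to 5 and 24.0, 22.4, 24.7, 25.7 and 13.8 CPM in WT mice 1 to 5. The mice fell into a high set of 22.4 to 25.7 CPM and a low set of KO mice 4 and 5 and WT mouse 5, with both genotypes in each. Its log2 fold change was the smallest of the 10, 0.02 (-0.16 to 0.19, edgeR quasi-likelihood adjusted p = 0.975), and it was -0.03 with genotype alone.

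*Junb* (chromosome 8, 84974484 to 84978718, minus strand) was measured at 62.5, 62.6, 91.4, 58.3 and 90.1 CPM in KO mice 1 to 5 and at 53.1, 53.7, 32.1, 80.8 and 33.3 CPM in WT mice 1 to 5. All KO mice lay above 4 of the 5 WT mice, and WT mouse 4 lay among the KO mice. The log2 fold change was 0.45 (0.01 to 0.90), with an unadjusted p of 0.0464, adjusted to 0.463 by edgeR quasi-likelihood testing. Of the merged exons of *Junb*, 173 bases (7.52%) are shared with *Prdx2* on the opposite strand, and the sources used here do not say whether counting used strand, so a share of its counts is uncertain.

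*Egr1*, *Egr2* and *Egr4* encode zinc finger transcription factors of the early growth response family. *Egr1* (chromosome 18), the gene with the most counts of the 10, stood at 446, 338, 454, 335 and 337 CPM in KO mice 1 to 5 and at 416, 373, 361, 425 and 258 CPM in WT mice 1 to 5. Apart from WT mouse 5, which was lowest, the values of the genotypes ran side by side. KO over WT, the log2 fold change was 0.13 (0.0019 to 0.26, edgeR quasi-likelihood adjusted p = 0.464), and 0.06 (-0.20 to 0.32) with genotype alone.

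*Egr2* (chromosome 10, 67535475 to 67542188, plus strand) stood at 10.1, 7.20, 15.5, 5.82 and 15.1 CPM in KO mice 1 to 5 and at 9.20, 7.86, 6.82, 10.6 and 2.93 CPM in WT mice 1 to 5. KO mice 3 and 5 were the highest, the other KO mice lay within the WT range, and WT mouse 5 was far below the rest. *Egr2* had a log2 fold change of 0.42 (-0.07 to 0.91, edgeR quasi-likelihood adjusted p = 0.554).

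*Egr4* (chromosome 6, 85511121 to 85513589, minus strand) was measured at 47.8, 40.2, 50.3, 34.7 and 51.3 CPM in KO mice 1 to 5 and at 48.4, 36.0, 39.1, 44.0 and 28.1 CPM in WT mice 1 to 5. Its values were among the most even of the 10, with KO mouse 4 below 4 of the 5 WT mice. Its log2 fold change came to 0.17 (-0.0070 to 0.35, edgeR quasi-likelihood adjusted p = 0.492).

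*Npas4*, a transcription factor induced by calcium entry into neurons, and *Nr4a1*, an orphan nuclear receptor, complete the transcription factors of the list. *Npas4* (chromosome 19, 4984355 to 4990316, minus strand) stood at 16.5, 28.5, 33.5, 24.6 and 49.0 CPM in KO mice 1 to 5 and at 16.3, 15.5, 12.4, 31.4 and 17.7 CPM in WT mice 1 to 5. KO mouse 1 lay with the 4 low WT mice and WT mouse 4 with the KO mice. Its log2 fold change was the largest of the 10 with genotype alone, 0.71 (0.16 to 1.26, unadjusted p = 0.0147, edgeR quasi-likelihood adjusted p = 0.507), and 0.35 (-0.08 to 0.79, adjusted p = 0.584) with the 3 surrogate variables.

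*Nr4a1* (chromosome 15, 101254269 to 101274795, plus strand) was measured at 101, 95.3, 170.0, 98.3 and 106 CPM in KO mice 1 to 5 and at 86.9, 81.6, 71.5, 127 and 54.1 CPM in WT mice 1 to 5. As with *Junb*, every KO mouse lay above 4 WT mice, while WT mouse 4 lay among the KO mice, here below KO mouse 3 alone. It had the smallest p of the 10 with surrogate variables, with a log2 fold change of 0.44 (0.09 to 0.79, unadjusted p = 0.0165, edgeR quasi-likelihood adjusted p = 0.316).

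*Arc* and *Dusp1* are effectors. *Arc* encodes a protein of the postsynapse that promotes the removal of AMPA receptors. *Arc* (chromosome 15, 74669083 to 74672570, minus strand) stood at 292, 253, 529, 275 and 209 CPM in KO mice 1 to 5 and at 199, 262, 72.8, 343 and 101 CPM in WT mice 1 to 5. KO mouse 3 was the highest and WT mice 3 and 5 were the lowest, and 2 WT mice lay inside the KO range. The means were 312 ± 125 CPM in KO and 196 ± 112 CPM in WT mice (SD, n = 5 each). The log2 fold change was 0.85 (0.15 to 1.56), the largest of the 10 with surrogate variables, with an unadjusted p of 0.0205, adjusted to 0.340 by edgeR quasi-likelihood testing, and it was 0.67 (-0.06 to 1.40) with genotype alone.

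*Dusp1*, a phosphatase that switches off MAP kinases and so acts against the cascade that induces it, lies on chromosome 17 (26505590 to 26562128, minus strand). It was measured at 27.3, 30.4, 44.2, 31.9 and 38.9 CPM in KO mice 1 to 5 and at 24.9, 30.4, 17.4, 41.6 and 18.9 CPM in WT mice 1 to 5. KO mouse 3 and WT mouse 4 were the highest 2 mice, and WT mice 3 and 5 the lowest. *Dusp1* had a log2 fold change of 0.33 (-0.11 to 0.78, edgeR quasi-likelihood adjusted p = 0.628).

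**Figure D2:**
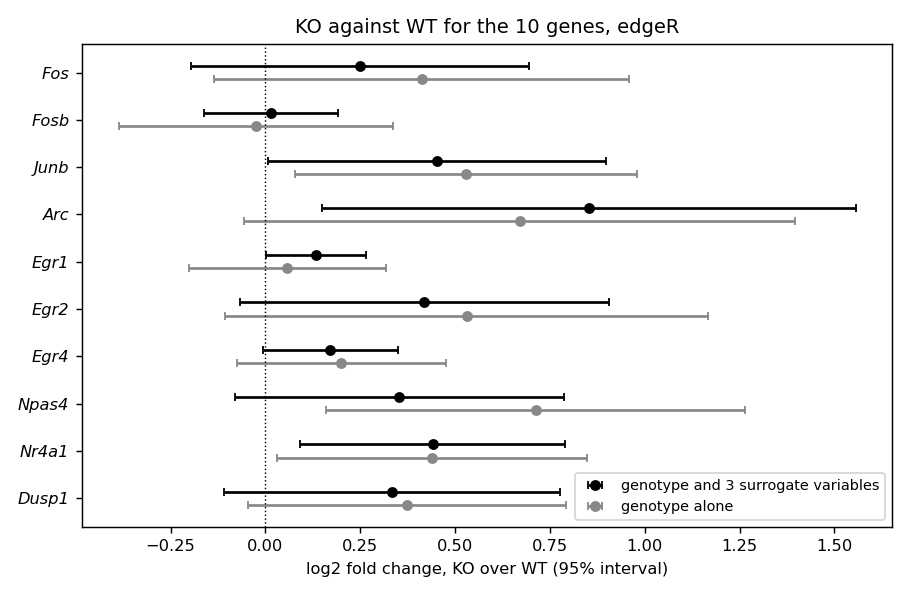
Log2 fold change of KO over WT (horizontal axis) for each of the 10 genes with its 95% interval, from edgeR with genotype and 3 surrogate variables (black) and with genotype alone (gray). The points lie between 0.02 (*Fosb*) and 0.85 (*Arc*) with surrogate variables, and 6 of the 10 black intervals include 0.

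The intervals show what these 5 mice against 5 leave possible only if the surrogate variables are taken as known. These are estimated from the same expression values and can take up variation that the 10 genes share. With surrogate variables the interval of the fold, KO over WT, ran from 1.11 to 2.94 for *Arc*, from 0.872 to 1.62 for *Fos* and from 1.00 to 1.20 for *Egr1*. With genotype alone the intervals of *Arc* and *Egr1*, given above, also took in lower levels in KO mice. Without WT mouse 5 the log2 fold change of *Egr1* was -0.0437 with surrogate variables, outside its interval. Levels per length, as CPM per kb of merged exon, ordered the genes in WT mice as *Egr1* (81.8), *Arc* (64.0), *Nr4a1* (24.0), *Junb* (22.0), *Egr4* (18.2), *Fos* (10.5), *Dusp1* (8.04), *Npas4* (4.51), *Fosb* (3.55) and *Egr2* (2.20). In KO mice *Arc* (102) stood before *Egr1* (85.2), and the rest kept the WT order down to *Fosb* (3.49) and *Egr2* (3.16). In WT mice the neighbors *Egr1* and *Arc*, *Nr4a1* and *Junb*, *Junb* and *Egr4*, *Fos* and *Dusp1*, and *Npas4* and *Fosb* lay closer than the larger of their SDs. In KO mice this was so for *Arc* and *Egr1*, *Nr4a1* and *Junb*, *Fos* and *Dusp1*, and *Fosb* and *Egr2*. Exons of all annotated transcripts were merged, so a gene with unused exons reads low on this scale. In bulk tissue, fewer cells with an active gene and less of its RNA per cell cannot be told apart.

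Within a genotype, these genes varied more from mouse to mouse than most genes did. The SD of log2(CPM + 1) within genotype was 0.75 for *Arc*, 0.59 for *Egr2*, 0.54 for *Fos*, 0.52 for *Npas4*, 0.44 for *Junb*, 0.40 for *Nr4a1* and *Dusp1*, 0.35 for *Fosb*, 0.27 for *Egr4* and 0.26 for *Egr1*. Of all tested genes, 99.9% had a smaller SD than *Arc*, and 92.7% a smaller one than *Egr1*, the steadiest of the 10. The median SD was 0.42 for the 10 genes and 0.12 for all tested genes, of which 95% lay below 0.28. The biological coefficient of variation from the fit on genotype alone ranged from 13.7% (*Egr1*) to 37.0% (*Arc*), where the median of all tested genes was 8.45%.

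**Figure D3:**
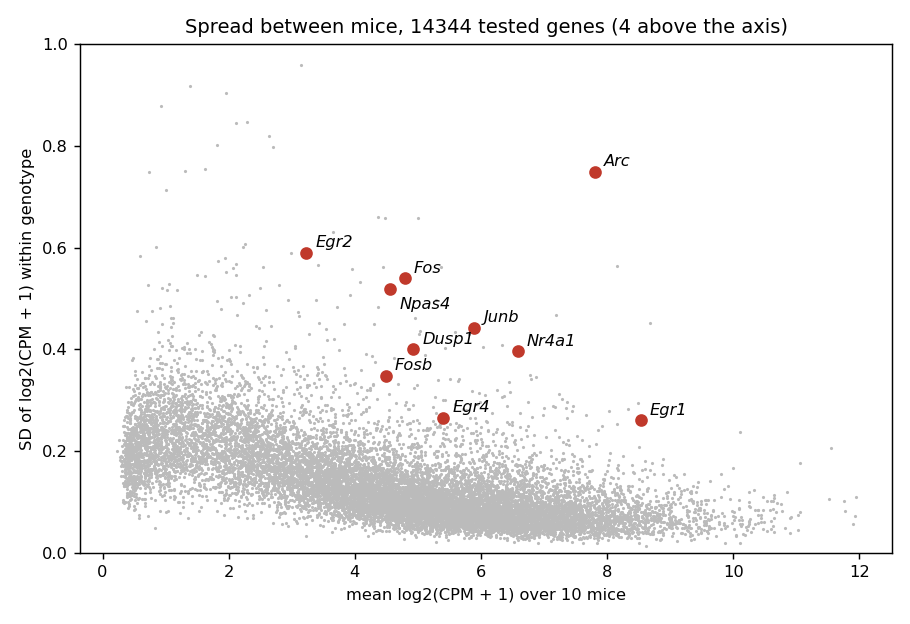
SD of log2(CPM + 1) within genotype (vertical axis) against the mean log2(CPM + 1) over 10 mice (horizontal axis) for 14344 tested genes (gray), with the 10 immediate early genes in red. *Arc* has an SD of 0.75 at a high mean level, where most genes lie below 0.28, and *Egr1* and *Egr4* have the smallest of the 10, 0.26 and 0.27.

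As a fold between the highest and the lowest of the 10 mice, *Arc* spanned 7.27, *Egr2* 5.30, *Fos* 4.17, *Npas4* 3.96, *Nr4a1* 3.14, *Junb* 2.85, *Dusp1* 2.54, *Fosb* 1.86, *Egr4* 1.82 and *Egr1* 1.76. The fold of *Arc* was 2.53 among KO mice and 4.71 among WT mice. The SD was larger in WT than in KO mice for 8 of the 10 genes, and larger in KO mice for *Fosb* and *Npas4*. For *Fosb* the SDs of the genotypes were 0.35 in both. The difference in SD between genotypes was not tested.

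Most of this spread was shared. After the genotype means were subtracted, 1 component over the 10 mice held 69.6% of the variation of the 10 genes and the second held 13.9%. The values were not scaled, so the genes with the largest SD, such as *Arc* and *Egr2*, weigh most in this share, and *Egr1* and *Egr4* least. The genes are from the same libraries, and this share is a description without a test and without other sets of genes beside it. Averaged over the 10 genes as log2(CPM + 1) relative to each gene's mean, KO mouse 3 stood at 0.59, WT mouse 4 at 0.37, KO mouse 5 at 0.36, KO mouse 1 at 0.11, KO mouse 2 at 0.05, WT mouse 1 at -0.02, WT mouse 2 at -0.09, KO mouse 4 at -0.09, WT mouse 3 at -0.50 and WT mouse 5 at -0.77. Mice of both genotypes stood in the upper and in the lower part of this order, although the 2 lowest were WT mice.

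KO mouse 3 was the highest mouse for 6 genes and among the highest 3 for all 10. WT mouse 4 was never the highest but among the highest 3 for 9 genes, the exception being *Egr4*. KO mouse 5 was highest for *Fos*, *Egr4* and *Npas4* and yet among the lowest 3 for *Fosb* and *Egr1*. WT mouse 5 was the lowest mouse for 6 genes and WT mouse 3 for the other 4, *Junb*, *Arc*, *Npas4* and *Dusp1*. The average was 0.20 ± 0.27 in KO and -0.20 ± 0.44 in WT mice (SD, n = 5 each).

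**Figure D4:**
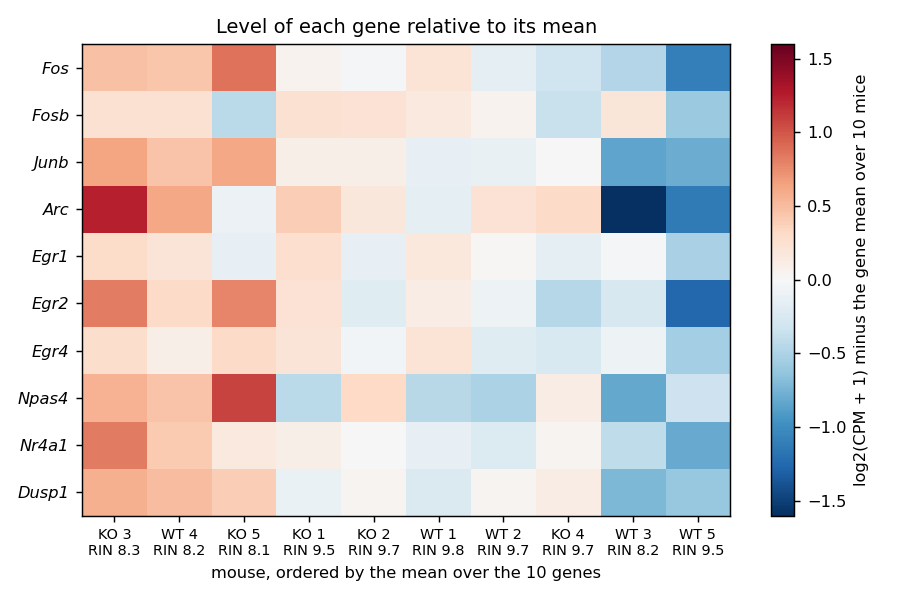
Level of each gene (rows) in each mouse (columns, ordered by the average over the 10 genes, with genotype and RIN below), as log2(CPM + 1) minus the gene's mean over 10 mice (color scale, red above and blue below). KO mouse 3 (average 0.59) is red for all 10 genes and WT mouse 5 (average -0.77) blue for all 10, and mice of both genotypes stand between them.

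Because few mice held the extremes, each mouse was left out in turn. None of the 10 genes was called in any of these fits. Without WT mouse 5 the median log2 fold change of the 10 genes was 0.05 with 5 of 10 above 0, and without WT mouse 3 it was 0.08 with 8 of 10 above 0, against 0.34 and 10 of 10 with all mice. In both of these fits 0 genes reached an unadjusted p under 0.05. Without KO mouse 3 the median was 0.22 and without KO mouse 5 it was 0.21, with 10 of 10 above 0 and an unadjusted p under 0.05 for 0 and 1 genes. Without WT mouse 4 it was 0.59, with 6 genes at an unadjusted p under 0.05. With KO mice 3 and 5 both left out, the median was 0.18, 0 genes reached an unadjusted p under 0.05, and *Arc* had a log2 fold change of 0.59. With both left out and genotype alone in the model the median was 0.12, against 0.43 with all mice, with 0 genes at an unadjusted p under 0.05, and in the 6 mice of high RIN it was 0.24, with 4. With genotype alone and 1 mouse left out the median lay between 0.29 (without WT mouse 5) and 0.62 (without WT mouse 4), with 8 to 10 of the genes above 0.

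**Figure D5:**
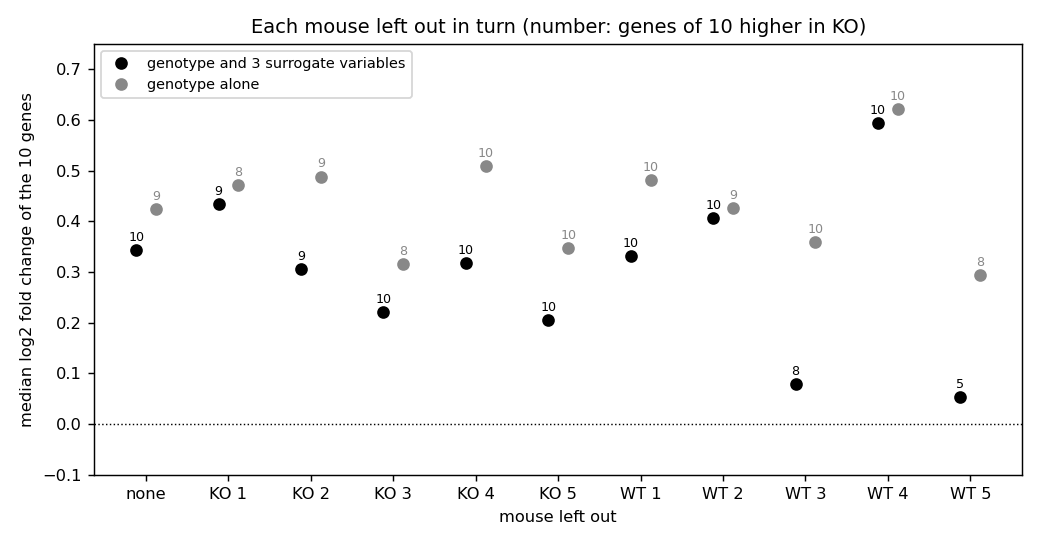
Median log2 fold change of the 10 genes, KO over WT (vertical axis), with all mice and with each mouse left out (horizontal axis), with 3 surrogate variables (black) and with genotype alone (gray). Numbers count the genes of 10 with a fold change above 0. With surrogate variables the median is 0.05 without WT mouse 5 and 0.59 without WT mouse 4.

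RIN was set beside the genes. The 4 mice with a RIN of 8.1 to 8.3 hold the 3 highest averages over the 10 genes, and also the second lowest, that of WT mouse 3. Between low and high RIN, with genotype in the model, 0 of 10 genes were called by edgeR quasi-likelihood testing (0.335% of all tested genes), and the smallest adjusted p was 0.237. An unadjusted p under 0.05 was reached by 5 of the 10 (*Fos*, *Junb*, *Egr2*, *Npas4* and *Nr4a1*, all higher at low RIN), against 10.8% of all tested genes in either direction and 5.47% upward. The log2 fold change, low over high RIN, was above 0 for 10 of 10 genes (49.8% of tested genes), with a median of 0.40, largest for *Egr2* (0.70) and *Npas4* (0.63) and smallest for *Fosb* (0.10). With 1 mouse left out, the number at an unadjusted p under 0.05 was 1 without WT mouse 4, 3 without KO mouse 3, 4 or 5, 4 without KO mouse 2 or WT mouse 5, 5 without KO mouse 1, 6 without WT mouse 1 or 2 and 7 without WT mouse 3. These fits test whether the levels differ between the RIN ranges, and RIN as a cause of the levels was not tested.

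Both RIN ranges hold both genotypes, so KO and WT were also set side by side within each, as a description. Among the 6 mice of high RIN the mean log2(CPM + 1) was higher in KO for 10 of 10 genes (48.6% of tested genes), by a median of 0.28. KO values lay wholly above WT values for *Junb* and *Nr4a1*, as for 6.1% of tested genes. Among the 4 mice of low RIN, whose KO mice are mice 3 and 5 alone, it was higher in KO for 8 of 10 (49.3%), by a median of 0.64, and lower for *Fosb* (-0.31) and *Egr1* (-0.0019). In these mice KO values lay wholly above WT values for 5 genes, *Fos*, *Junb*, *Egr2*, *Egr4* and *Npas4*, as for 18% of tested genes. With the RIN range as a covariate in place of the surrogate variables, 0 of the 10 genes were called, and their smallest adjusted p was 0.280 (*Npas4*) by edgeR quasi-likelihood testing.

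Markers of cell types were set beside the genes. The summed level of each of 12 marker lists overlapped between the genotypes, and 0 of their genes were called (0.844% of all tested genes). An unadjusted p under 0.05 was reached upward by 5.51% and downward by 5.1% of all tested genes. Of the 7 striatal markers in the table (8 were listed), 4 had an unadjusted p under 0.05, higher in KO, with a smallest adjusted p of 0.0842 from edgeR quasi-likelihood testing. Of the 6 interneuron markers, 3 had an unadjusted p under 0.05, lower in KO, with a smallest adjusted p of 0.189. Of the 5 astrocyte markers, 2 did, higher in KO, with a smallest adjusted p of 0.167 in the same test. So did 1 excitatory neuron and 1 oligodendrocyte precursor marker, higher in KO, and 1 microglia, 1 endothelial and 1 blood marker, lower. On genotype alone, upward, 1 striatal, 1 astrocyte, 1 microglia and 2 oligodendrocyte precursor markers did (4.18% of all tested genes). Downward, 2 interneuron and 1 endothelial markers did. The smallest adjusted p of the striatal markers was then 0.266 in the same test. The sum of the striatal markers lay between 233 and 355 CPM in KO and between 187 and 420 CPM in WT mice. It was lowest in WT mice 3 and 4, of which the first was low and the second high for the immediate early genes, and highest in WT mouse 5, lowest of all for those genes. Astrocyte markers summed to 1128 to 1437 CPM in KO and 1092 to 1197 CPM in WT mice, and choroid plexus markers to at most 3.38 CPM in any mouse. The part of cell makeup in the levels of the 10 genes was not tested.

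Other genes of the same families were read from the same fit. Of *Fosl1*, *Fosl2*, *Jun*, *Jund*, *Egr3*, *Nr4a2* and *Nr4a3*, 6 passed the filter (*Fosl1* did not). Of these 6, 0 were called (0.844% of all tested genes) and 0 had an unadjusted p under 0.05 (10.6%). Their log2 fold changes were 0.09 for *Jun* and *Egr3*, 0.03 for *Jund*, 0.02 for *Fosl2*, -0.18 for *Nr4a3* and -0.29 for *Nr4a2*, with a median of 0.03 and adjusted p-values from 0.564 to 0.953 by edgeR quasi-likelihood testing. DESeq2 called 0 of the 6 as well. On genotype alone 0 were called, and 1 had an unadjusted p under 0.05, higher in KO (4.18% upward of all tested genes). In that fit 2 of the 6 fold changes were above 0 and the median was -0.05. *Egr3*, a further EGR factor induced by activity, was lowest in KO mouse 5 at 107 CPM, where the other mice lay between 237 and 391 CPM.

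A list of 34 other rapidly induced genes was tested in the same fit, of which 1 was called (0.844% of all tested genes), 11 had an unadjusted p under 0.05, all higher in KO (5.51% upward of all tested genes), 26 of 34 had a fold change above 0 (48.1%), and the median was 0.11. On genotype alone 0 were called, and 7 had an unadjusted p under 0.05, all higher in KO (4.18% upward of all tested genes). In that fit 20 of 34 fold changes were above 0 (48.8%), and the median was 0.07. These genes are from the same libraries, so their directions are not separate observations. The gene called with surrogate variables was *Arl4d*, which encodes a small GTPase of the ARF family. It stood at 33.7, 26.0, 30.9, 33.2 and 26.8 CPM in KO mice 1 to 5 and at 25.8, 27.8, 12.3, 21.6 and 18.9 CPM in WT mice 1 to 5. All KO mice lay above 4 WT mice, and KO mice 2 and 5 lay below WT mouse 2. *Arl4d* rose by a log2 fold change of 0.71 (0.44 to 0.97, edgeR quasi-likelihood adjusted p = 0.0101, Benjamini-Hochberg). The call was lost with genotype alone (0.50, adjusted p = 0.432), without KO mouse 1 (0.72, adjusted p = 0.0554) and without KO mouse 3 (0.68, adjusted p = 0.0575) in the same test. It was also lost with 1 or 2 surrogate variables, with RIN in their place, in the mice of high RIN, and without KO mice 3 and 5 on genotype alone. It held without KO mice 3 and 5 with surrogate variables (edgeR quasi-likelihood adjusted p = 0.0138).

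Genes of the slower, second wave of the response to activity, which follow the transcription factors, numbered 14, and 0 were called, with 3 at an unadjusted p under 0.05, all higher in KO (5.51% of all tested genes). The smallest p-values were those of *Nrn1* (log2 fold change 0.15, adjusted p = 0.0597), *Sorcs3* (0.16, adjusted p = 0.347) and *Nptx2* (0.12, adjusted p = 0.468) by edgeR quasi-likelihood testing, and the median of the 14 was 0.05. On genotype alone 0 of the 14 had an unadjusted p under 0.05 (8.02% of all tested genes). In that fit 5 of 14 fold changes were above 0 (48.8%) and the median was -0.05, so the sign of the median depended on the surrogate variables. *Nrn1* encodes neuritin, a surface protein that promotes growth of neurites, and *Nptx2* encodes a pentraxin secreted at excitatory synapses.

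Upstream, 24 genes encoding kinases, CREB, SRF and their cofactors were listed, and 0 were called, with 7 at an unadjusted p under 0.05, all higher in KO (5.51% of all tested genes). *Rps6ka2*, which encodes the kinase RSK3, had a log2 fold change of 0.22 (edgeR quasi-likelihood adjusted p = 0.0668). *Camk2a*, the alpha subunit of calcium/calmodulin-dependent kinase II, had 0.12 (adjusted p = 0.0684) in the same test. On genotype alone 6 of the 24 had an unadjusted p under 0.05, all higher in KO (4.18% of all tested genes). Their smallest adjusted p in that fit was 0.443 by edgeR quasi-likelihood testing. DESeq2 called 2 of the 24 and 1 of the 14 genes of the second wave. Without KO mouse 2 or KO mouse 5, 1 gene of each list was called, and without WT mouse 2, or without KO mice 3 and 5 together, 1 of the upstream genes.

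Of 9 other dual-specificity phosphatases beside *Dusp1*, 0 were called by edgeR (0.844% of all tested genes) or DESeq2. An unadjusted p under 0.05 was reached by 2 (*Dusp5* higher and *Dusp16* lower in KO), against 10.6% of all tested genes in either direction. *Dusp5* had a log2 fold change of 0.50 (adjusted p = 0.136), *Dusp6* 0.23 (adjusted p = 0.492), and *Dusp16* -0.19 (adjusted p = 0.423) by edgeR quasi-likelihood testing. On genotype alone 0 of the 9 had an unadjusted p under 0.05 (8.02% of all tested genes).

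A list of 10 genes induced by glucocorticoids, hormones released with stress and handling, was set beside them. All 10 had a fold change above 0 (48.1% of all tested genes), and 6 were called, all higher in KO mice (0.6%). This list was also drawn up with earlier results of these data known, so the shares set side by side are a description only. *Sgk1*, a kinase, stood at 134 ± 27.0 CPM in KO and 92.7 ± 25.3 CPM in WT mice (SD, n = 5 each), and rose by 0.77 on the log2 scale (edgeR quasi-likelihood adjusted p = 2.62e-06). *Fkbp5*, a chaperone of the glucocorticoid receptor, rose by 0.51, *Pdk4*, which inhibits pyruvate dehydrogenase, by 0.81, *Ddit4* by 0.57, *Nfkbia* by 0.47 and *Tsc22d3* by 0.30. The median of the 10 was 0.49 with surrogate variables and 0.32 with genotype alone, where *Pdk4* was the only one called. With 1 surrogate variable 1 gene of the list was called, with 2 surrogate variables or the RIN range 2 were, and with 3 surrogate variables and any mouse left out 5 to 7 were. Without KO mice 3 and 5, 7 of the 10 were called with surrogate variables and 1 with genotype alone. In the mice of high RIN 0 were called, and with genotype alone and 1 mouse left out 0 to 2. Between low and high RIN the fold changes of these genes had the sign opposite to those of the immediate early genes, with 0 of 10 above 0 and 2 called (0.335% of all tested genes), *Sgk1* (adjusted p = 0.0397) and *Tsc22d3* (adjusted p = 0.0109) by edgeR quasi-likelihood testing.

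Outside the list, the genes whose levels followed the average of the 10 most closely over the 10 mice, with genotype means subtracted, were *Rassf1* (Pearson's r = 0.95), *Dusp6*, *Tec* and *RP23-74O4.1* (0.92 each), *Reep4* (0.91), *Tsc1* and *Mycn* (0.90 each) and *Mif4gd* (0.89). They were picked as the best of all tested genes in 10 libraries, so these coefficients are a description. Of the 8, 0 were called between KO and WT, and their log2 fold changes ran from -0.44 (*Tec*) to 0.23 (*Dusp6*).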

How the data were processed

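PFC RNA of 10 mice (5 WT, 5 KO, from the labels) was sequenced with the TruSeq Stranded mRNA kit as 101 bp paired reads. STAR 2.7.1a was used by the authors for alignment to mm10. After removing reads that mapped more than once, they counted exon overlaps with HTSeq 0.9.1 (intersection-strict) against the protein-coding part of Gencode M21, and deposited the raw counts per gene. Paralogs that share sequence lose reads this way. The strand setting is not given in the sources used here.

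Genes were filtered with edgeR 4.0.16 (R 4.3.3), scaled by TMM and tested by its quasi-likelihood method with genotype and 3 surrogate variables (sva 3.50.0 on log2(CPM + 1), seed 1), with Benjamini-Hochberg adjustment over 14344 genes and a threshold of 0.05. CPM are TMM-scaled. Spread was described as the SD of log2(CPM + 1). Libraries were split at a RIN of 9. DESeq2 1.42.0, limma 3.58.1, other filters, covariates and each mouse left out were alternatives. Scripts were tested on simulated counts. No pair of libraries was within sampling noise of each other. Floors cover counting error only, since reads carry no molecular identifiers. Nothing in the labels says how litters were shared, and the 10 mice were treated as independent. The p-values set the genotype difference against the variation between these mice that is left after the surrogate variables.

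Figures were drawn with Python 3.11.15, pandas 2.3.3 and matplotlib 3.10.9. Promoters come from RefSeq on GRCm38.p6 and gene positions from Gencode M21.

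The genes, lists and tests were chosen with earlier results of these data known. Named genes were the 10 members, *Zbtb16*, their relatives, of each other list the genes that passed or else the 3 with the smallest p, and the 8 most like the average of the members (log2 CPM, prior count 2). A gene that this rule also names is not reported here. *Egr3*'s value in KO mouse 5 and the marker sums named were picked after their values were seen.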

Additional observations from a re-analysis of the deposited data

Results flagged for a closer look

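In groups of 5 mice, 4 of 22 groups of values (the 10 genes, *Zbtb16*, in each genotype) had a mouse whose distance to its nearest neighbor, as a share of the whole range, passed the critical value of Dixon's test. For independent groups of normally distributed values, chance passes it in about 1 of 20. The 22 groups come from the same mice and hold genes that move together, so their number cannot be set against that rate. *Fosb* was 13.85 CPM in WT mouse 5, below the other WT mice (share 0.725). *Arc* was 529.3 CPM in KO mouse 3, above the other KO mice (share 0.74). *Npas4* was 31.39 CPM in WT mouse 4, above the other WT mice (share 0.722). *Nr4a1* was 170.0 CPM in KO mouse 3, above the other KO mice (share 0.854). KO mouse 3 is the mouse with 1 count on Y-linked genes. The effect of leaving it out is given with the other mice above.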

How the results depend on the processing

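In 35 alternatives, 11 of them chosen after seeing the data, 0 of the 10 genes were called, and the lowest adjusted p of any was 0.0747 in edgeR's quasi-likelihood test (*Nr4a1*, without WT mouse 4). Of 350 recomputed fold changes, 21 changed sign, 13 of them of *Fosb*. *Fosb* was -0.0255 with 0 surrogate variables, -0.0198 with RIN range, -0.0233 with RIN as a number and -0.0208 with the replicate block. Leaving out each mouse, with or without surrogate variables, gave -0.192 to 0.0856 for *Fosb*, -0.0844 to 0.61 for *Fos*, -0.0446 to 0.18 for *Egr1*, -0.0413 to 0.69 for *Egr2* and -0.0046 to 0.29 for *Egr4*. With surrogate variables the lowest values came without WT mouse 5 or, for *Fos*, WT mouse 3.

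The number of genes called among all tested was 121 and became 30, 34 and 57 with 0, 1 and 2 surrogate variables, 39 with RIN range, 38 with RIN as a number, 24 with the replicate block, 1 in mice with a RIN of 9 or above, 233 with DESeq2 and 16 without KO mice 3 and 5 on genotype alone. Leaving out each mouse gave 39 (WT mouse 3) to 248 (KO mouse 2) genes, with 59 without KO mouse 1, 54 without KO mouse 3 and 65 without WT mouse 4, and 13 to 26 on genotype alone. The cause of these shifts was not tested. The replicate numbers join different mice. The correlations of same-numbered mice ran from -0.106 to 0.173, and 4 of 10 libraries correlated best with their own number. No rate for unpaired mice was set beside this count, so it does not decide whether the numbers are pairs. The main fit did not take them as pairs. Under the block 0 of the 10 genes were called, with a median of 0.44. With 5 mice a group, the 95% intervals of *Arc*, *Egr2*, *Fos*, *Junb*, *Dusp1* and *Npas4* spanned more than 0.8 on the log2 scale.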
